A study of Mus musculus with 8 samples.

Results

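The genes described are 34 genes of fatty acid oxidation and of its control by peroxisome proliferator-activated receptors (PPARs), chosen by name from the 53465 genes of a colon RNA-seq table and matched to it by Ensembl ID. Colon samples of 4 mice with a conditional, cell-specific deletion of Arg1, the gene of arginase 1 (called Arg1 ko), were compared with those of 4 littermates that kept the gene (called wild type). Per the labels' protocols the samples were epithelium released from the colon with EDTA. Mice of both genotypes were on the B6 background, aged 7 to 12 weeks with sexes and ages matched, and each had received 2.5% dextran sulfate sodium (DSS), which damages the lining of the colon, for a week and then plain water until day 10. The labels name neither the cell type nor the promoter that drives the deletion. Values were deposited as regularised log2 values (rlog), in which counts are corrected for depth, logged and shrunk toward each gene's mean, so that differences of weakly expressed genes are understated. Every difference is the ko mean less the wild-type mean on that scale.

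Fatty acids are taken up by the cell, bound by carrier proteins and joined to coenzyme A. The carnitine shuttle then moves the acyl groups into mitochondria, where repeated rounds of dehydrogenation, hydration, dehydrogenation and thiolysis shorten the chain and hand electrons to the respiratory chain. PPAR alpha and PPAR gamma are nuclear receptors that bind fatty acids and, paired with a retinoid X receptor, switch on many of these genes through DNA elements in which the receptor's core site is repeated with a single base between the copies (a DR1 element). Colonocytes are known to use short-chain fatty acids made by gut bacteria, butyrate above all, as their main fuel, and PPAR gamma is abundant in colon epithelium.

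Short stretches of promoter are shown here because they hold the letters nearest to the DR1 element among the genes listed. RefSeq promoter windows (build GRCm38.p6), each running from 250 bases before to 50 bases after a transcription start, were found for 30 of the 34 genes in 33 windows. Angptl4, Acaa2, Decr1 and Vnn1 had none. The DR1 motif, made of the core site AGGTCA, any base N and AGGTCA again, was searched on both strands with at most 2 mismatches, and 6 of the 33 windows held it (18.2%), against 3.86% of all 32851 windows. The stretches below are written 5′ to 3′ on the strand of the gene, with the match in capitals, and overlap no annotated exon of the gene. The stretch of Cd36 precedes a start that lies inside the gene, past its outermost annotated start. The match in Slc25a20 lay past the start and is not shown.
Fabp1, chr6:71199788-71199826, plus strand, 1 mismatch: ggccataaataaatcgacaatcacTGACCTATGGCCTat
Plin2, chr4:86670248-86670308, minus strand, 2 mismatches: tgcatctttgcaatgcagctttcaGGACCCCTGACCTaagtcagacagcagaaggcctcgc
Cd36, chr5:17835923-17835983, minus strand, 2 mismatches: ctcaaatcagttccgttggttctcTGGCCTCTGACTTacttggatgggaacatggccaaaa
Echs1, chr7:140116477-140116528, minus strand, 2 mismatches: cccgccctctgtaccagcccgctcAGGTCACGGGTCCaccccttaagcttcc
Etfa, chr9:55512284-55512344, minus strand, 2 mismatches: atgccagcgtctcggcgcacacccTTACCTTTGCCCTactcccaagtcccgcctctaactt
In Fabp1, Plin2, Cd36 and Etfa the letters match on the strand opposite to the gene. The GC box GGGCGG, searched on both strands, stood in 22 of the 33 windows (66.7%), against 35.7% of all windows, and the CCAAT box in 17 (51.5%), against 37.4%. The TATA box TATAAA stood in 2 windows, those of Fabp1 and Pparg, or 6.06%, against 13.6% of all windows. These matches describe letters and are not measured binding sites.

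Hadha and Hadhb encode the alpha and beta subunits of the mitochondrial trifunctional protein and start back to back, Hadha on the minus and Hadhb on the plus strand of chromosome 5. The 85 bases between their annotated starts are shown because both genes share them, on the plus strand, with the GC boxes in capitals.
Hadha and Hadhb, chr5:30155163-30155247: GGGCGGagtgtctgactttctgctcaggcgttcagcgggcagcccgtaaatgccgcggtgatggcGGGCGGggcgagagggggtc

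Before the members, the deleted gene and the tissue were checked. Arg1 had rlog values of 5.06, 4.87, 5.15 and 5.19 in Arg1 ko 1 to 4, against 5.59, 5.57, 5.02 and 5.58 in wild type 1 to 4, so the value of the library labelled wild type 3 was within the ko values. Arg1 was weakly expressed (16.8% of tested genes had a lower mean) and its deletion is cell-specific. This value therefore does not settle whether the label is right. Permuting the labels in all 70 ways (exact permutation test, two-sided) gave p = 0.114, with 0.0286 the smallest value possible, and calls that differ without the library labelled wild type 3 are given beside the results. Epithelial markers were strongly expressed (Epcam at 15.25 ± 0.10 in Arg1 ko and 15.45 ± 0.26 in wild type, SD, n = 4 each), but so was the smooth muscle gene Myh11 (14.97 ± 0.11 in Arg1 ko and 14.68 ± 0.65 in wild type, SD, n = 4 each). The adipocyte hormone gene Adipoq was expressed at a much lower level (9.98 ± 0.15 in Arg1 ko and 9.89 ± 0.55 in wild type, SD, n = 4 each). Myh11 and Adipoq are genes of tissue outside the epithelium that the protocol describes. In such bulk samples fewer cells of a type and less RNA per cell cannot be told apart. Labels number the mice of each genotype in a run of their own, and if these runs mark batches, batch and genotype cannot be told apart.

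No member differed between Arg1 ko and wild type in the test over all genes (limma, 0 of 33 tested members with an adjusted p under 0.05, where 0% of all 16380 tested genes passed). Of the 33 members, 26 had lower and 7 higher means in Arg1 ko, while 48.8% of all tested genes were lower. Among the 19 members that carry out mitochondrial oxidation 16 were lower and 3 higher. The median difference was -0.15 over the members and 0.0064 over all tested genes. With other scalings the lower members numbered 28 (library medians aligned) and 23 (quantile normalisation), with medians of -0.18 and -0.10. At an unadjusted p under 0.05 there were 3 members, Angptl4, Eci2 and Acadl, all lower, where 9.1% of all tested genes reached that level in either direction and 4.37% on the lower side. In not a single member did the 4 ko values lie apart from the 4 wild-type values, as they did in 4.03% of all tested genes (1.67% lower and 2.36% higher in Arg1 ko).

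The wild-type libraries differed among themselves in these genes. Wild type 1 lay above all 4 ko libraries in 22 members and wild type 2 in 25, against 38.2% and 35.5% of all tested genes. Wild type 4 did so in 18 members (37.7% of all tested genes). The library labelled wild type 3 lay above all ko libraries in 5 members and below all of them in 15, against 24% and 26.2% of all tested genes. The ko libraries were alike: the median SD of a member was 0.068 in Arg1 ko and 0.297 in wild type, and all 33 members had the smaller SD in Arg1 ko, as did 90.9% of all tested genes, with median SDs of 0.096 in Arg1 ko and 0.258 in wild type. Without wild type 1 and 2, 20 members were lower and 13 higher, where 50.3% of all tested genes were lower, with a median of -0.06 and no member past the test (limma, 0% of all tested genes called), and in 5 members the groups did not overlap, against 22.7% of all tested genes.

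**Figure D1:**
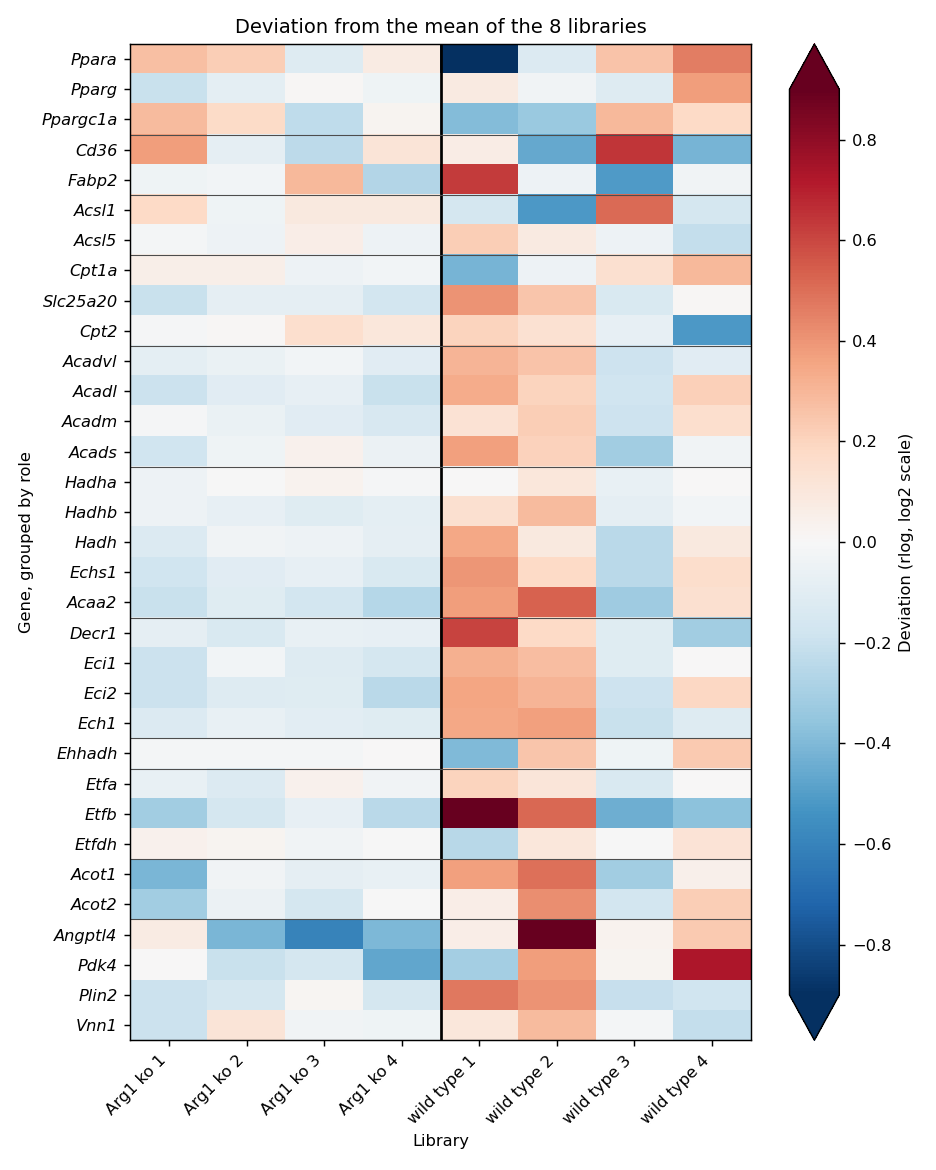
Deviation of each of the 33 tested members from its mean over the 8 libraries, in rlog units (colour), with libraries across and genes grouped by role down the page. The 4 Arg1 ko columns are pale, wild type 1 and 2 are mostly red, and the column of the library labelled wild type 3 is mostly pale blue.

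The receptors came out in different directions. Ppara, the receptor that drives fatty acid oxidation in liver, had rlog values of 9.24, 9.19, 8.86 and 9.05 in Arg1 ko 1 to 4, against 7.94, 8.85, 9.23 and 9.44 in wild type 1 to 4. The wild-type values spanned the ko range on both sides, with wild type 1 the lowest of all 8, and the difference was 0.22 with a standard error of 0.28 (limma adjusted p = 0.733). Without wild type 1 and 2 it was -0.25.

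Pparg, the receptor abundant in colonocytes and adipocytes, had 11.57, 11.69, 11.78 and 11.74 in Arg1 ko 1 to 4, against 11.86, 11.74, 11.65 and 12.15 in wild type 1 to 4. The groups overlapped and wild type 4 was highest (difference -0.15, limma adjusted p = 0.592). Ppargc1a, a coactivator that PPARs use to raise mitochondrial genes, had 10.13, 10.02, 9.62 and 9.87 in Arg1 ko 1 to 4, against 9.46, 9.51, 10.14 and 10.02 in wild type 1 to 4. Here wild type 1 and 2 were the lowest of the 8, opposite to their place in the enzymes described below, and the difference of 0.13 turned to -0.17 without them (limma adjusted p = 0.761 with all 8 libraries).

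The other PPAR partners and cofactors were measured through a list of 25 genes, of which 24 were tested. None passed the test (limma, 0% of all tested genes), 16 were higher and 8 lower, and the median difference was 0.13. An unadjusted p under 0.05 (limma) was reached by 3, against 9.1% of all tested genes. The members with the smallest p were Hnf4g (0.69) and Hnf4a (0.34), nuclear receptors of gut epithelium that also bind DR1 elements, Pprc1 (0.43), a coactivator related to Ppargc1a, and Ppard (0.21), the PPAR delta gene. Hnf4a had 13.83, 13.84, 14.01 and 13.97 in Arg1 ko 1 to 4, against 13.47, 13.62, 13.79 and 13.42 in wild type 1 to 4, so all ko values lay above all wild-type values (as in 2.36% of all tested genes), by a narrow margin over the library labelled wild type 3. Without that library Hnf4g, Pprc1 and Hnf4a passed (limma adjusted p = 0.0284, 0.0289 and 0.0432), where 2.85% of all tested genes were called higher, and leaving out the wild-type library nearest to the ko values enlarges such a difference by construction.

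Uptake and binding genes differed by less than the spread within wild type. Cd36, the membrane receptor that takes up long-chain fatty acids, had 10.83, 10.38, 10.22 and 10.58 in Arg1 ko 1 to 4, against 10.52, 10.00, 11.10 and 10.04 in wild type 1 to 4. The wild-type library labelled 3 was the highest and wild type 2 and 4 the lowest of the 8 (difference 0.09, standard error 0.24, limma adjusted p = 0.883). Cd36 is also made by adipocytes, and the 8 adipocyte markers, none of them at 0, were high and low in the same wild-type libraries: their mean deviation from the average library was 0.45 in wild type 1 and 0.40 in the library labelled wild type 3, but -0.41 in wild type 2 and, lowest, -0.77 in wild type 4. The log2 of their summed level ranged from 13.73 to 13.87 in Arg1 ko and from 13.05 to 14.45 in wild type, 7 of the 8 were higher in Arg1 ko, none passed the test (limma, 0 at an unadjusted p under 0.05), and their part in the Cd36 values was not tested. With the library labelled wild type 3 left out, the adipocyte gene Plin1 passed (limma adjusted p = 0.0481), where 6.14% of all tested genes were called.

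The fatty acid binding proteins of the enterocyte cytosol stood far apart from each other. Fabp2, the intestinal form, had 12.77, 12.79, 13.11 and 12.55 in Arg1 ko 1 to 4, against 13.44, 12.77, 12.30 and 12.78 in wild type 1 to 4. Its difference of -0.02 was within the spread and became 0.08 with quantile normalisation. Fabp1, the liver form and the member whose promoter window holds the closest DR1 match, did not reach the filter of a mean rlog of 3, with 2.44, 2.63, 2.47 and 2.59 in Arg1 ko 1 to 4, against 2.58, 2.52, 2.42 and 2.45 in wild type 1 to 4, and was the only member left untested.

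The long-chain acyl-CoA synthetases activate fatty acids. Acsl1 had 10.89, 10.67, 10.79 and 10.80 in Arg1 ko 1 to 4, against 10.55, 10.19, 11.22 and 10.55 in wild type 1 to 4. As with Cd36, the library labelled wild type 3 was highest, the other 3 wild-type libraries lay below all ko libraries, and the difference of 0.16 (limma adjusted p = 0.711) was 0.36 without the library labelled wild type 3 (limma adjusted p = 0.0857). Acsl5, the form prominent in intestine, differed by -0.02 with an SD of 0.048 in Arg1 ko and 0.185 in wild type, and by 0.028 with quantile normalisation. About 5.51% of the 50-base words of the Acsl5 transcript are also on the reverse strand of the transcripts of Zdhhc6 and others, and no source used here says whether the counting used strand.

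Members of the carnitine shuttle differed in direction. Cpt1a, the carnitine palmitoyltransferase of the outer membrane and the controlled step of entry into mitochondria, had 13.07, 13.06, 12.96 and 12.98 in Arg1 ko 1 to 4, against 12.59, 12.97, 13.15 and 13.30 in wild type 1 to 4. Wild type 1 was lowest and wild type 4 highest, and the difference of 0.02 with a standard error of 0.14 became -0.014 with library medians aligned. Slc25a20, the carrier that exchanges acylcarnitine for carnitine across the inner membrane, had 12.43, 12.55, 12.55 and 12.46 in Arg1 ko 1 to 4, against 13.03, 12.88, 12.49 and 12.64 in wild type 1 to 4. There 3 wild-type libraries lay above all ko libraries and the library labelled wild type 3 among them (difference -0.26, standard error 0.12, limma adjusted p = 0.522). Without that library the difference was -0.35 (limma adjusted p = 0.0776). Cpt2, which rebuilds acyl-CoA in the matrix, differed by 0.13 and was lowest in wild type 4 (10.66).

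**Figure D2:**
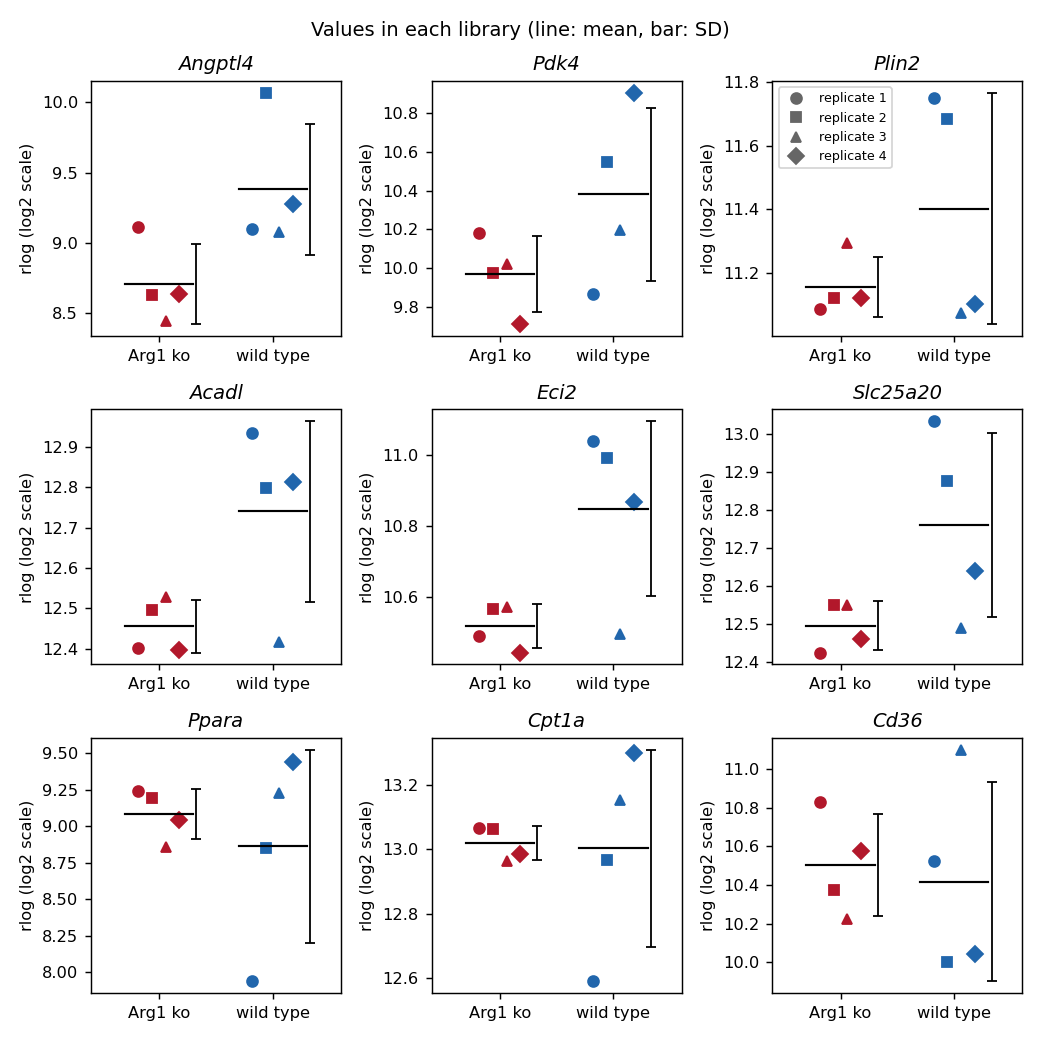
The rlog values of 9 members in each library, with Arg1 ko on the left and wild type on the right of each panel, markers for replicates, a line for the mean and a bar for the SD (n = 4 each). In Acadl, Eci2 and Slc25a20 the ko points lie close together and below all wild-type points except that of the library labelled wild type 3, while Ppara, Cpt1a and Cd36 have wild-type points on both sides of the ko points.

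All 4 acyl-CoA dehydrogenases, which take the first electrons from acyl-CoA of very long, long, medium and short chains, had lower means in Arg1 ko, also with each scaling, though Acads was then as near to 0 as -0.0031 (quantile normalisation). Acadl, the long-chain enzyme, had 12.40, 12.49, 12.53 and 12.40 in Arg1 ko 1 to 4, against 12.93, 12.80, 12.42 and 12.81 in wild type 1 to 4. The library labelled wild type 3 lay within the ko values and the other 3 above them. The difference was -0.29 with a standard error of 0.12 (limma adjusted p = 0.522), and -0.39 without that library (limma adjusted p = 0.0364, range over the alternatives 0.0364 to 0.819). Acadm, Acadvl and Acads differed by -0.16, -0.14 and -0.12. Of these, Acadvl and Acads turned to 0.07 and 0.11 without wild type 1 and 2. Acadvl overlaps Dvl2 tail to tail, with 24% of its 50-base words on the reverse strand of that transcript, so its value is uncertain if strand was not used in counting.

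The hydration, second dehydrogenation and thiolysis steps were lower in Arg1 ko in 5 of 5 members. Acaa2, the thiolase that releases acetyl-CoA, had 12.13, 12.22, 12.16 and 12.07 in Arg1 ko 1 to 4, against 12.70, 12.86, 12.00 and 12.47 in wild type 1 to 4. The library labelled wild type 3 was the lowest of the 8 and the other 3 wild-type libraries the highest. The difference was -0.36 with a standard error of 0.16 (limma adjusted p = 0.522).

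Echs1, the short-chain enoyl-CoA hydratase, differed by -0.25, and Hadh, the short-chain hydroxyacyl-CoA dehydrogenase, by -0.14. The trifunctional protein subunits with the shared promoter stretch differed in size of difference: Hadha was at 12.96 ± 0.03 in Arg1 ko and 12.97 ± 0.07 in wild type (SD, n = 4 each; difference -0.02, 0.10 with quantile normalisation), the smallest wild-type SD of the 33 members. Hadhb was at 11.61 ± 0.03 in Arg1 ko and 11.77 ± 0.17 in wild type (SD, n = 4 each; difference -0.16). The difference between these genes was not tested, and 62.4% of the 50-base words of the Hadhb transcript also stand in other genes, mainly in Gm13910, so Hadhb is uncertain.

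Auxiliary enzymes that move or reduce double bonds of unsaturated fatty acids were lower in 4 of 4 members. Eci2, an enoyl-CoA isomerase, had 10.49, 10.57, 10.57 and 10.44 in Arg1 ko 1 to 4, against 11.04, 10.99, 10.50 and 10.87 in wild type 1 to 4. Again the library labelled wild type 3 lay among the ko values and the rest above them (difference -0.33, standard error 0.12, limma adjusted p = 0.522). Its relative Eci1 differed by -0.25, Ech1, a dienoyl-CoA isomerase, by -0.20, and Decr1, the dienoyl-CoA reductase, by -0.18, but Ech1 and Decr1 were at 0.06 and 0.12 without wild type 1 and 2. Ehhadh, the bifunctional enzyme of peroxisomes, had 10.86, 10.86, 10.86 and 10.88 in Arg1 ko 1 to 4, against 10.48, 11.13, 10.84 and 11.11 in wild type 1 to 4, the smallest ko SD of the members (0.011), with wild-type values on both sides (difference -0.02).

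Electrons pass from the dehydrogenases through the electron transfer flavoprotein. Etfb, its beta subunit, had 9.03, 9.18, 9.27 and 9.10 in Arg1 ko 1 to 4, against 10.41, 9.86, 8.90 and 8.97 in wild type 1 to 4. Wild type 1 and 2 stood above and the other wild-type libraries below all ko libraries, the widest wild-type spread of the members (SD 0.73). The difference of -0.39 (standard error 0.30, limma adjusted p = 0.594) was 0.21 without wild type 1 and 2. Of the 50-base words of Etfb 67.3% also stand in Gm45233, a gene annotated over the same stretch of chromosome 7 and listed at 0 in every library, so the Etfb values are uncertain. Etfa, the alpha subunit, differed by -0.09 and Etfdh, which hands the electrons to ubiquinone, by 0.01 (-0.02 with library medians aligned).

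The thioesterases Acot1 (cytosolic) and Acot2 (mitochondrial) split acyl-CoA back into fatty acid and coenzyme A and are classic PPAR alpha targets in liver. Acot2 had 7.15, 7.41, 7.31 and 7.46 in Arg1 ko 1 to 4, against 7.53, 7.88, 7.30 and 7.68 in wild type 1 to 4, with the library labelled wild type 3 inside the ko range (difference -0.26, limma adjusted p = 0.525). Acot1 differed by -0.30. They are near neighbours on chromosome 12, and 27.7% of the 50-base words of Acot2 and 33.2% of those of Acot1 also stand in other genes, mostly in each other and in Acot4, Acot5 or Acot3, so reads may be split between them and both values are uncertain.

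The PPAR targets outside the oxidation cycle held the largest difference of the members. Angptl4, a secreted inhibitor of lipoprotein lipase that fasting, PPARs and low oxygen raise, had 9.11, 8.63, 8.44 and 8.64 in Arg1 ko 1 to 4, against 9.10, 10.07, 9.07 and 9.28 in wild type 1 to 4. Arg1 ko 1 lay within the wild-type values and the other 3 ko libraries below all of them, while wild type 2 was highest. The difference was -0.67 with a standard error of 0.23 and the smallest unadjusted p of the members, 0.0142 (limma adjusted p = 0.522). It was -0.44 without wild type 2, -0.81 without Arg1 ko 1 and -0.78 without the library labelled wild type 3 (limma adjusted p = 0.0881).

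Pdk4, the kinase that shuts pyruvate dehydrogenase when fat is burned, had 10.18, 9.97, 10.02 and 9.71 in Arg1 ko 1 to 4, against 9.87, 10.55, 10.20 and 10.90 in wild type 1 to 4. Wild type 1 lay among the ko values and wild type 4 was highest (difference -0.41, standard error 0.20, limma adjusted p = 0.522). Leaving out wild type 4 brought the difference to -0.23, and leaving out wild type 1 to -0.58. Plin2, which coats lipid droplets, had 11.09, 11.12, 11.29 and 11.12 in Arg1 ko 1 to 4, against 11.75, 11.68, 11.07 and 11.10 in wild type 1 to 4. Wild type 1 and 2 alone stood out, and the difference of -0.25 was 0.07 without them. Vnn1, a pantetheinase and PPAR alpha target, differed by -0.08.

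**Figure D3:**
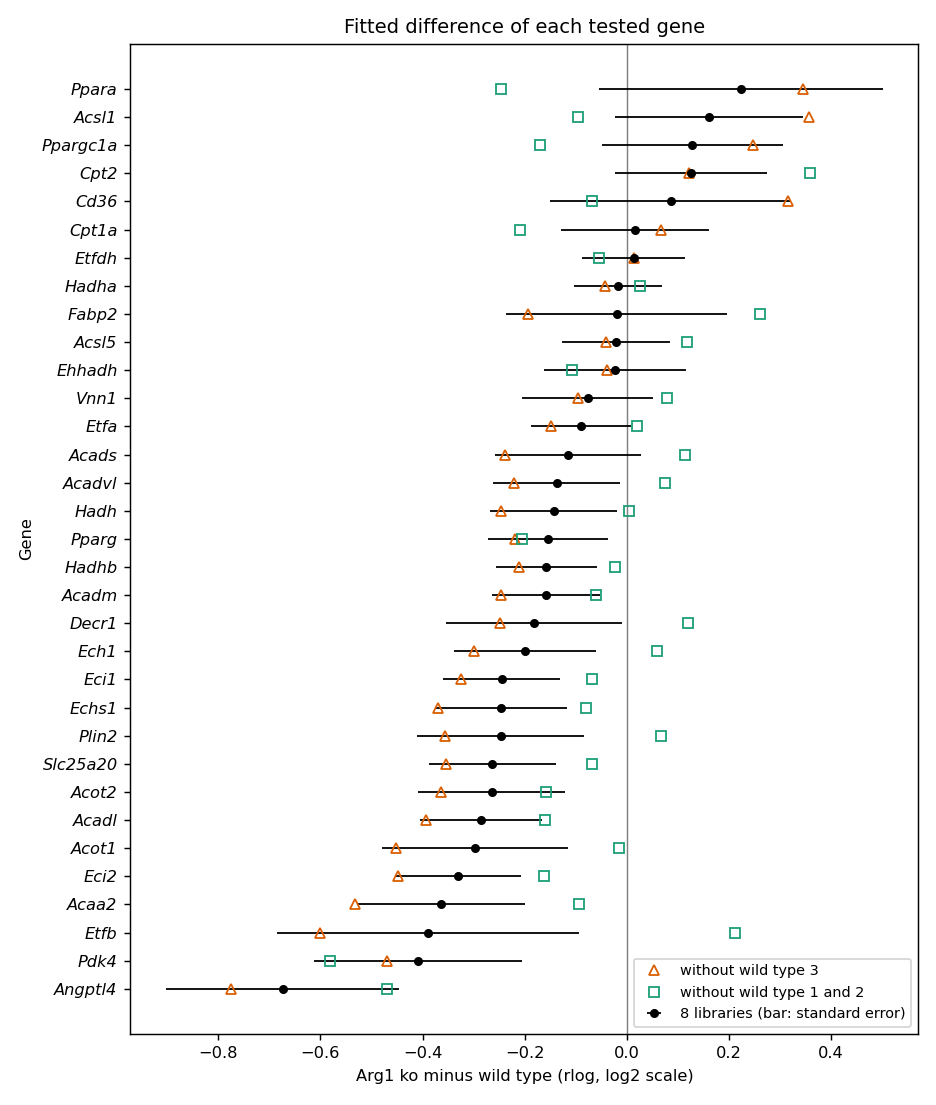
Fitted difference of each of the 33 tested members in rlog units, Arg1 ko less wild type, with all 8 libraries (black, bar for the standard error), without the library labelled wild type 3 (orange triangles) and without wild type 1 and 2 (green squares). Most black points lie below 0, the triangles of Acadl, Echs1, Acaa2 and Eci2 lie farther below 0, and the squares lie on both sides of 0, lowest for Pdk4 (-0.58) and Angptl4 (-0.47).

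Without the library labelled wild type 3, 4 members passed the test, all lower in Arg1 ko: Acadl, Echs1, Acaa2 and Eci2 (limma adjusted p = 0.0364, 0.046, 0.0336 and 0.0324), where 6.14% of all tested genes were called and 3.28% were called lower. As with 8 libraries, 26 members were lower (48.5% of all tested genes), with a median of -0.24. In 11 members all ko values then lay below the 3 remaining wild-type values, against 13.1% of all tested genes. Of the wild-type values, its own were the lowest in these genes, so leaving it out enlarges the differences by construction. Leaving out any other single library gave 0 members past the test (limma), with 1 to 4 members at an unadjusted p under 0.05.

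The same lean across libraries was seen in other genes of mitochondria and of translation. The 19 members that carry out mitochondrial oxidation had mean deviations from the average library of -0.11 to -0.05 in Arg1 ko, and 0.28, 0.22, -0.16 and -0.0057 in wild type 1 to 4. The 44 nuclear genes of oxidative phosphorylation, of which 42 were lower in Arg1 ko, stood at -0.20 to -0.01 in Arg1 ko and at 0.52, 0.27, -0.29 and -0.02 in wild type 1 to 4. The 40 cytosolic ribosomal protein genes, all lower in Arg1 ko, stood at -0.32 to -0.08 in Arg1 ko and at 0.67, 0.40, -0.37 and 0.12 in wild type 1 to 4. In all 3 sets wild type 1 was highest, wild type 2 next and the library labelled wild type 3 lowest. The median differences were -0.28 and -0.41 for the oxidative phosphorylation and ribosomal lists, and -0.07 for 18 citrate cycle genes, of which 13 were lower. No gene of these lists passed the test with 8 libraries (limma), and 1, 11 and 2 genes had an unadjusted p under 0.05, as did 9.1% of all tested genes. Without the library labelled wild type 3, 4 oxidative phosphorylation, 23 ribosomal and 1 citrate cycle genes passed (limma), all lower, with medians of -0.42, -0.61 and -0.14. In that setting 3.28% of all tested genes were called lower. On average that library was the lowest wild-type library in these lists, so leaving it out enlarges such differences by construction. Without wild type 1 and 2 the medians were 0.04, -0.08 and 0.02. The part of this lean in the members' differences was not tested.

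**Figure D4:**
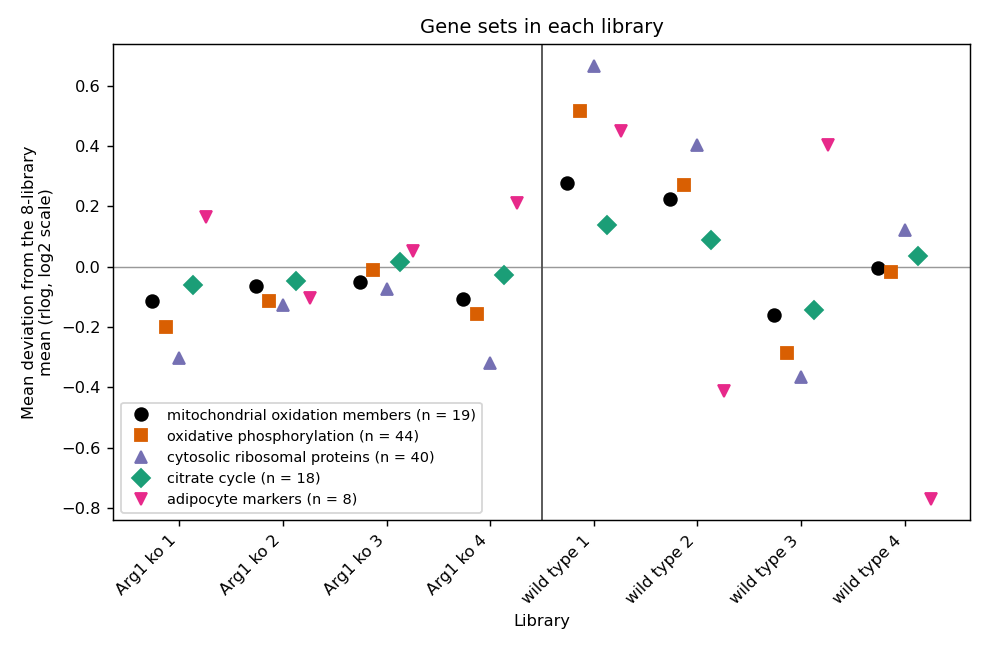
Mean deviation from the 8-library mean, on the rlog scale, of the 19 members of mitochondrial oxidation and of 4 other gene sets in each library, Arg1 ko on the left and wild type on the right. The members, the oxidative phosphorylation genes and the ribosomal protein genes are highest in wild type 1 and lowest in the library labelled wild type 3, while the adipocyte markers are lowest in wild type 4.

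Transcript length ran with the differences. All 13 members with a coding transcript under 2000 bases had lower means in Arg1 ko, with a median of -0.25, and 75.4% of all 4735 tested genes of that length were lower, with a median of -0.14. Of the 9 members of at least 3000 bases 4 were lower and 5 higher, with a median of 0.02, while 30.4% of all such genes were lower, with a median of 0.09. Spearman's correlation between length and difference was 0.49 across the 33 members and 0.48 across 16361 tested genes, and between length and the deviation of wild type 1 it was -0.76 across the members and -0.65 across all genes. For the library labelled wild type 3 it was 0.82 and 0.54. These are descriptions across genes that share their libraries. Angptl4 (3308 bases) and Pdk4 (3484 bases) had the lowest differences of the long members. After a correction for transcript length, chosen after seeing the data, 26 of 33 members were lower, 24 of them lower without the correction too, with a median of -0.10 and 0 past the test (limma). Angptl4 was then at -0.71, Pdk4 at -0.45 and Eci2 at -0.24. Several short enzymes came nearer to 0, with Eci1 at -0.10, Ech1 at -0.06, Acads at -0.04, Hadh at -0.06 and Echs1 at -0.14.

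**Figure D5:**
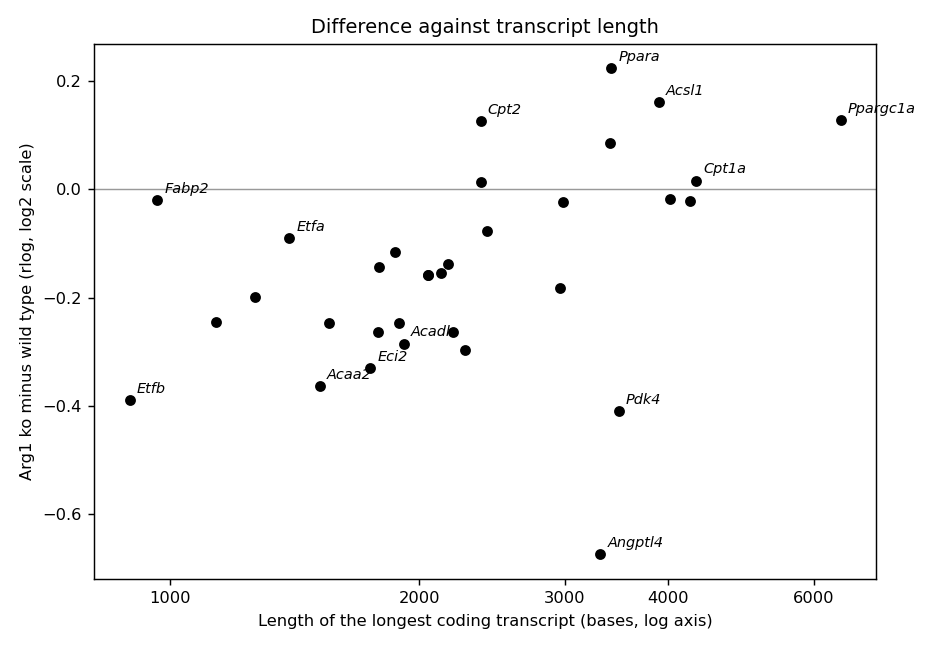
Difference of each tested member in rlog units, Arg1 ko less wild type, against the length of its longest coding transcript in bases on a log axis, 1 point per gene. All genes under 2000 bases lie below 0, and the long genes lie on both sides, with Angptl4 (-0.67) and Pdk4 (-0.41) the lowest of these.

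Further genes of the pathway, taken from lists that exclude the members, were split in direction. Of 20 tested genes of mitochondrial oxidation outside the members, 10 were higher and 10 lower, with a median of 0.00092, and of 20 peroxisomal oxidation genes 13 were higher and 7 lower, with a median of 0.02. None passed the test (limma). An unadjusted p under 0.05 was reached by 0 of the mitochondrial genes and by 1 peroxisomal gene, Pex11a (-0.24), a peroxisome division factor and PPAR alpha target. Of all tested genes 9.1% reached that level. Without the library labelled wild type 3, Acox3 (0.32), a peroxisomal acyl-CoA oxidase, passed (limma adjusted p = 0.0497), where 2.85% of all tested genes were called higher. Among the mitochondrial genes, the smallest p values belonged to Hsd17b10 (-0.25), a hydroxyacyl-CoA dehydrogenase, Etfrf1 (-0.23), a regulator of the electron transfer flavoprotein, Mlycd (-0.25), which breaks down the malonyl-CoA that inhibits Cpt1a, and Acot9 (-0.16), a thioesterase. Of 8 genes of ketone body metabolism 4 were higher and 4 lower, with 0 at an unadjusted p under 0.05.

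Of 25 tested PPAR targets outside the members, 12 were higher and 13 lower, with a median of -0.04 and none past the test (limma). An unadjusted p under 0.05 (limma) was reached by 3, against 9.1% of all tested genes. These 3 were Txnip (-0.63), an inhibitor of glucose uptake, Cidea (-0.40), a lipid droplet protein, and Pex11a. Cidea passed without the library labelled wild type 3 (-0.57, limma adjusted p = 0.0357), where 3.28% of all tested genes were called lower. In Txnip the groups did not overlap, with 15.00, 14.79, 14.82 and 14.83 in Arg1 ko 1 to 4, against 15.06, 15.51, 15.04 and 16.35 in wild type 1 to 4. The margin between Arg1 ko 1 and the library labelled wild type 3 was narrow, and 1.67% of all tested genes were apart on the lower side. Wild type 4 stood highest, as it did for Pdk4, and the difference was -0.34 without it. The PPAR alpha targets of liver Cyp4a14 and Cyp4a12a were at 0 in every library, and Cyp4a10 and Fgf21 did not reach the filter.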

How the data were processed

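Epithelium was released with 30 mM EDTA, and 1000 ng of total RNA per mouse entered a stranded Illumina mRNA kit, per the labels' protocols. Tools named in the submitters' processing notes, with no order or options, are STAR 2.5.2b, BWA 0.7.14-r1136, featureCounts from Subread 1.5.3 and, for the values, DESeq2 1.16.1, with GRCm38 as the build. No annotation release or strand setting was found (not given in the sources used here). What the authors deposited are regularised log2 values (rlog), a column per library. Counts cannot be read back from rlog, so the depth is unknown and no counting interval is given. Each of the 8 columns was matched to its sample by label. Replicates are numbered by order of deposit, which pairs nothing. Per the labels the 8 libraries come from 8 mice, and p-values measure the spread between them.

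Genes were named from GENCODE vM21 (GRCm38; 53360 of 53465 IDs matched). The 16380 genes that averaged at least 3 in rlog and varied between libraries were fitted together with limma 3.58.1 in R 4.3.3 (group term, prior following the mean, two-sided, Benjamini-Hochberg at 0.05). The code was tried on simulated data with the same SD in both genotypes and no shifts shared by the genes of a library. Such data differ from those described here, so that trial does not show how the test behaves on them. Members and lists were chosen with earlier results of these data known, so no test was run over a list. By rule, values per library are given for Arg1, for Ppara, Pparg, Ppargc1a, Cpt1a, Pdk4, Angptl4 and Plin2, and for the member with the smallest p in each role, and up to 4 genes of a list, those with the smallest p, are named. Fabp1, Fabp2, Myh11, Epcam, Adipoq, Cpt2 in wild type 4, the per-library values of Hnf4a, Txnip and Ly6g and the genes that passed without the library labelled wild type 3 were added after values were seen. Shared sequence was counted as 50-base words of the longest coding transcript that also stand in transcripts of other genes. Alternatives were no filter, a stricter filter at a mean of 5, aligned library medians, quantile normalisation, a single or a robust prior, an adjusted p of 0.1, leaving out each library or both wild type 1 and 2, and, added after seeing the data, a transcript length correction. A result that is withheld is not reported here.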

Additional observations from a re-analysis of the deposited data

Results flagged for a closer look

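In 4 of 68 groups of 4 libraries checked (33 members and Arg1 in both genotypes), the gap between an extreme library and its nearest neighbour was a larger part of the group's range than Dixon's 95% critical value allows. Chance alone gives about 1 in 20 such groups. Arg1 was low in the library labelled wild type 3 (5.02, the others 5.57 to 5.59). Within Arg1 ko, Acot1 was low in Arg1 ko 1 (7.11, the others 7.44 to 7.49) and Plin2 high in Arg1 ko 3 (11.29, the others 11.09 to 11.12). Ehhadh was high in Arg1 ko 4 (10.88) by a gap of small size, since its 4 ko values have an SD of 0.011.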

How the results depend on the processing

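Depth cannot be weighed, since rlog keeps no counts. No paired analysis was possible because the label numbers form separate runs per genotype and replicate numbers only follow the order of deposit. Leaving out 1 library gave 0 to 4 members past the test (limma), 0 to 1005 genes over all tested genes, 0 to 38 genes of the other lists and 0 to 12 members whose groups do not overlap. Each upper value came from leaving out the library labelled wild type 3, where 6.14% of all tested genes were called. In that setting the groups did not overlap in 25.6% of all tested genes. In 5 members the groups did not overlap once wild type 1 and 2 were both left out, against 22.7% of all tested genes. The Arg1 difference ranged from -0.51 to -0.31, with an adjusted p of 0.0418 (limma) without the library labelled wild type 3. That library had the lowest wild-type Arg1 value, so leaving it out enlarges the difference by construction. With all 8 libraries the adjusted p was 0.522 (limma). With 1 library left out, 10 members changed sign, over ranges of -0.085 to 0.41 (Ppara), -0.053 to 0.31 (Cd36), -0.19 to 0.19 (Fabp2), -0.096 to 0.049 (Acsl5), -0.12 to 0.11 (Cpt1a), -0.025 to 0.21 (Cpt2), -0.044 to 0.013 (Hadha), -0.16 to 0.056 (Ehhadh), -0.069 to 0.056 (Etfdh) and -0.16 to 0.0054 (Vnn1). Without wild type 1 and 2, 18 members changed sign, to -0.25 (Ppara), -0.17 (Ppargc1a), -0.069 (Cd36), -0.10 (Acsl1), -0.21 (Cpt1a), -0.055 (Etfdh), 0.26 (Fabp2), 0.12 (Acsl5), 0.074 (Acadvl), 0.11 (Acads), 0.025 (Hadha), 0.0043 (Hadh), 0.12 (Decr1), 0.058 (Ech1), 0.020 (Etfa), 0.21 (Etfb), 0.067 (Plin2) and 0.078 (Vnn1). Quantile normalisation turned Fabp2 (0.084), Acsl5 (0.028) and Hadha (0.10), and aligned library medians turned Cpt1a (-0.014) and Etfdh (-0.017). The transcript length correction, chosen after seeing the data, turned Ppargc1a (-0.015), Fabp2 (0.14), Cpt1a (-0.063) and Etfa (0.036). The cause of these changes was not tested. The other filters and priors kept the direction of all 33 members and 0 past the test (limma).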

Other observations

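Genes of lipid storage and of pyruvate use, which border on fatty acid oxidation, gave no member past the test (limma, 0% of all tested genes). Of 29 tested genes of lipid droplets and triglycerides 17 had lower means in Arg1 ko and 12 higher ones, with a median difference of -0.02. An unadjusted p under 0.05 (limma) was reached by 3, against 9.1% of all tested genes. These 3 were Gpihbp1 (-0.46), which anchors lipoprotein lipase in capillaries, Pnpla3 (0.68), a lipid droplet hydrolase, and Cidea (-0.40), which the list of PPAR targets also holds. Without the library labelled wild type 3, Gpihbp1, Cidea and Plin1 passed (limma adjusted p = 0.041, 0.0357 and 0.0481), where 6.14% of all tested genes were called. Pnpla2 (-0.28), the first lipase of stored triglyceride, came next. Of 13 genes of pyruvate dehydrogenase, its kinases and phosphatases and the mitochondrial pyruvate carrier 7 were lower and 6 higher, none at an unadjusted p under 0.05, with Mpc2 (-0.32) and Mpc1 (-0.21), the carrier subunits, Pdp2 (0.20), a phosphatase, and Pdhb (-0.18), a subunit of the enzyme, having the smallest p.

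Of 19 tested genes of fatty acid activation and transport 12 were higher and 7 lower. An unadjusted p under 0.05 (limma) was reached by 1 of them, against 9.1% of all tested genes. This was Slc27a3 (0.33), an acyl-CoA synthetase whose ko values lay above all wild-type values, as in 2.36% of all tested genes. Among markers of mature colonocytes 7 of 8 were higher in Arg1 ko, with a median of 0.22, the sulfate transporter Slc26a2 at 0.31 and the chloride exchanger Slc26a3 at 0.51. None passed the test (limma, 0 at an unadjusted p under 0.05), and the log2 of their summed level ranged from 18.55 to 18.93 in Arg1 ko and from 18.47 to 18.81 in wild type. Their mean deviation was -0.03, -0.25, 0.40 and 0.31 in Arg1 ko 1 to 4. Of 10 general epithelial markers 7 were lower and 3 higher, with a median of -0.09 and 0 past the test (limma). An unadjusted p under 0.05 was reached by 1 (9.1% of all tested genes), and in 1 the groups did not overlap (4.03% of all tested genes). Without the library labelled wild type 3, 1 passed (limma), lower in Arg1 ko, where 3.28% of all tested genes were called lower. The neutrophil list had its 4 tested members lower, with Ly6g at -1.35 (6.94, 7.55, 8.25 and 7.50 in Arg1 ko 1 to 4, against 9.18, 9.93, 7.21 and 9.32 in wild type 1 to 4), the lowest difference of all tested genes with 8 libraries. The neutrophil median was -0.65, -0.89 without the library labelled wild type 3 and -0.24 without wild type 1 and 2. Ly6g passed without the library labelled wild type 3 (limma adjusted p = 0.0284), where 3.28% of all tested genes were called lower. The fibroblast list had 4 of 5 higher, with the collagen genes Col1a1 (0.83) and Col3a1 (0.70) apart between the groups, as were 2.36% of all tested genes on the higher side, the macrophage list 4 higher and 3 lower, and the endothelium list 2 higher and 4 lower. Col1a1 and Col3a1 passed without the library labelled wild type 3 (limma adjusted p = 0.0244 and 0.0269), where 2.85% of all tested genes were called higher. With 8 libraries none of these genes passed the test (limma). An unadjusted p under 0.05 was reached by 1, 2, 1 and 1 genes of the 4 lists from neutrophil to endothelium, and by 9.1% of all tested genes.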
